A study of Mus musculus with 8 samples.

Results

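The 30 genes described here encode glucose transporters, the enzymes of glycolysis, proteins that handle lactate and pyruvate, and proteins made when oxygen is scarce. The rule names them by symbol, and all 30 were found among the 55487 Ensembl genes of the deposited values. Each had an FPKM (fragments per kilobase of transcript and scaled to library depth) of 1 or more in at least 7 of 8 libraries, so all 30 passed the minimum for testing of 1 FPKM in at least 4 libraries. Aldoa stood under 2 identifiers, of which ENSMUSG00000030695 was used, and the other did not exceed 0.52 FPKM.

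RNA was sequenced from 8 C57BL/6 mice that carried subcutaneous tumors of B16F10, an established pigmented melanoma line of that strain. Dosing began 7 to 9 days after the tumor cells were given, at a tumor volume of about 50 mm3. The 4 tacrolimus mice received tacrolimus, also called FK506, at 3 mg/kg into the peritoneum every 5 days. The 4 control mice received vehicle by the same route and schedule according to the sample labels, although the design text calls the controls untreated. Harvest followed 6 days after dosing began, and cells sorted as CD8+ tumor-infiltrating lymphocytes gave 1 library per mouse. The labels describe no genetic change in either group and give no age. Tacrolimus binds FKBP12 and blocks calcineurin, the phosphatase that activates NFAT factors after T cell receptor signaling.

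Glycolysis splits glucose into pyruvate in the cytosol and yields ATP without oxygen. Activated T cells and many tumor cells run it at a high rate and export the resulting lactate even when oxygen is present. When oxygen falls, prolyl hydroxylases no longer mark the HIF1 alpha protein for destruction. HIF1 then raises transcription of glucose transporters, glycolytic enzymes and other hypoxia genes through a short DNA core, ACGTG or GCGTG. HIF1 alpha is controlled mainly at the protein level, so its messenger RNA is not a readout of its activity.

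The libraries of sorted cells held abundant melanoma transcript. The 10 melanoma markers summed to between 22670.2 and 27796 FPKM in the tacrolimus libraries and between 19078 and 34361 FPKM in the vehicle libraries, and 7 of the 10 had a lower tacrolimus mean, as 75.7% of all genes tested had. After median-of-ratios scaling, which centers the typical gene, 6 of the 10 were higher with tacrolimus, with a median log2 difference from vehicle of 0.06. The 10 T cell markers, which define the labelled cells, summed to between 45.6 and 336 FPKM with tacrolimus and between 329 and 1377 FPKM with vehicle, with all 10 lower in mean. Cd8a, a chain of the coreceptor used for the sort, was at 33.2, 3.4, 18.3 and 19.6 FPKM with tacrolimus and at 153, 36.9, 49 and 47.7 FPKM with vehicle, and no library of either group lacked it. The 10 macrophage and monocyte markers summed to between 216 and 502 FPKM and between 391 and 1536 FPKM, again with all 10 lower in mean. No marker of these 3 lists was at 0 in any library. The 5 neutrophil markers summed to between 13.8 and 46.1 and between 32.1 and 351 FPKM, and the 8 fibroblast and endothelial markers to between 36.8 and 60.5 and between 45.4 and 76.6 FPKM. The 5 natural killer markers summed to between 16.35 and 19.28 and between 9.68 and 40.64 FPKM, with 3 of the 5 lower in mean. Of these 5, Ncr1 and Klra8 stayed under 1 FPKM in every library, while Klrb1c had means of 14.2 and 12.3 FPKM. In libraries of mixed cells, fewer cells of a type and less RNA per cell cannot be told apart. How much each cell type added to the level of a gene below was not tested. Depth was similar, at an estimated 15735800 to 19133500 fragments per library.

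The comparison asked which of the 30 genes differed between tacrolimus and vehicle. No gene of the 13032 tested passed an adjusted p of 0.05 in limma (0% called; 2056 were lower and 208 higher at an unadjusted p under 0.05), and the 30 genes had adjusted p values between 0.20 and 0.998 in that limma fit. At an unadjusted p under 0.05, 3 of the 30 were lower with tacrolimus, namely the transporter gene Slc2a3, the glycolytic regulator Pfkfb3 and Hif1a. That is 10.0% of the 30, where 15.8% of all genes tested were lower by that rule. None of the 30 was higher by that rule, where 1.60% of all genes were. The groups did not overlap in the same 3 genes, all lower, beside 11.0% of all genes tested (10.2% lower and 0.767% higher). These shares lie near or below those of all genes and are no result about the 30 genes as a set.

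Most of the 30 genes, 24 of them, lay above the median difference of all genes, which was itself below 0. As deposited, 17 of the 30 were higher and 13 lower in mean, with a median log2 difference of 0.01, while 75.7% of all genes tested were lower and their median was -0.19. The split around 0 rested on single libraries. It was 10 higher and 20 lower without vehicle replicate 1 (median -0.08, beside -0.24 for all genes). Without vehicle replicate 3 it was 22 higher and 8 lower (median 0.09, beside -0.22 for all genes). Above the median of all genes lay 23 of the 30 in the first of these fits and 24 in the second. After median-of-ratios scaling 24 of the 30 were higher and 6 lower, with a median of 0.24 beside 0.01 for all genes. Under that scaling Hk2, Aldoc and Bnip3 were higher at an unadjusted p under 0.05, which 5.69% of all genes were, and Slc2a3 was lower, which 5.64% were. Under upper-quartile scaling Hk2 and Bnip3 were higher and Slc2a3 lower by the same rule, beside 5.55% and 5.97% of all genes. The smallest limma adjusted p among the 30 under median-of-ratios scaling was 0.413. Each log2 difference below subtracts vehicle from tacrolimus after conversion to log2(FPKM + 1), as deposited unless the scaling is named, and this scale understates the change of low genes.

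**Figure D1:**
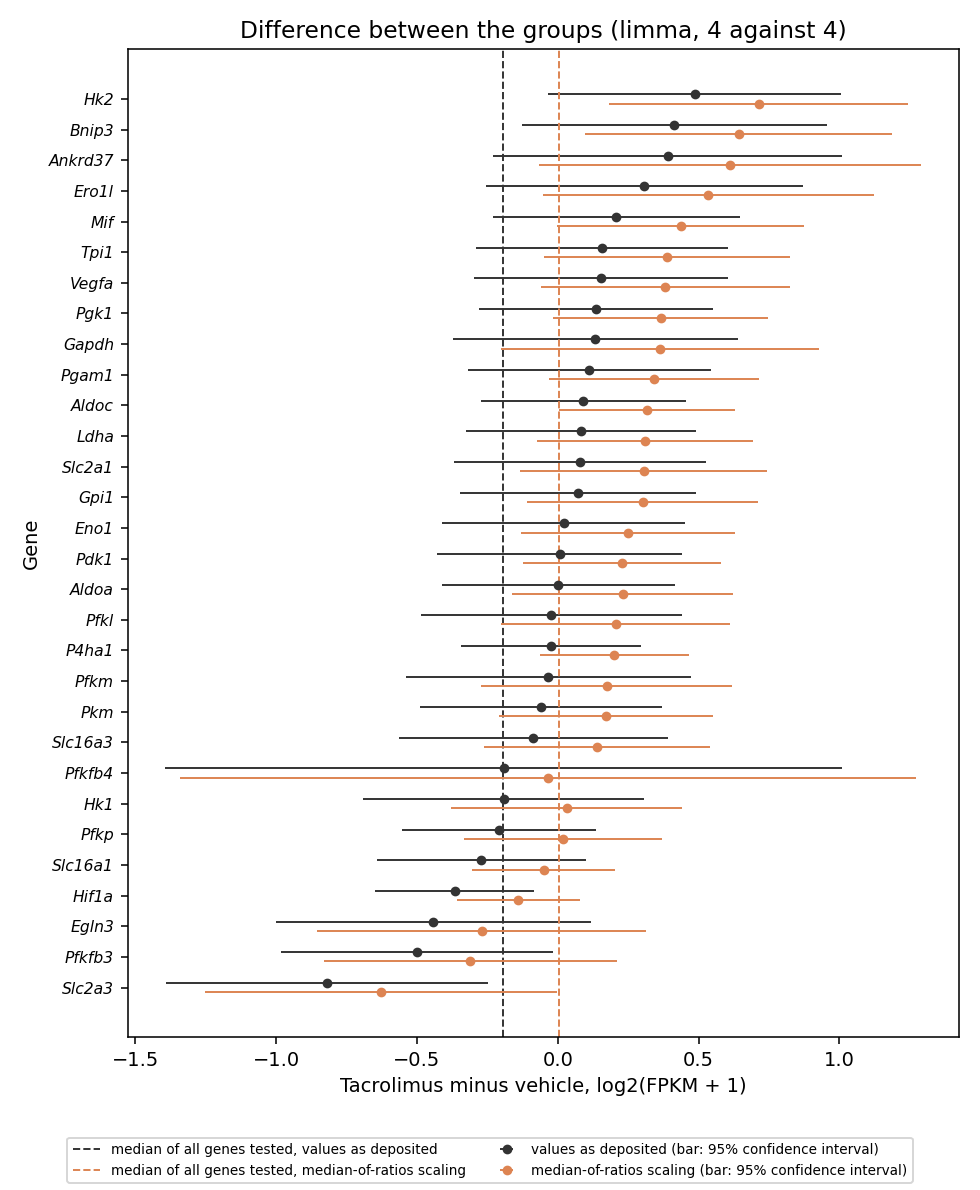
Difference between the groups for each of the 30 genes in log2(FPKM + 1), positive where tacrolimus was higher, as points with 95% confidence intervals, as deposited (dark) and after median-of-ratios scaling (orange). Dashed lines mark the medians of all 13032 genes tested, -0.19 and 0.01; 24 of the 30 genes lie to the right of their line in each, and Slc2a3 lies farthest to the left.

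The glucose transporter genes differed in level and in pattern. Slc2a1 (GLUT1), the transporter of most growing cells, was at 70.6, 103, 98.2 and 99.8 FPKM in tacrolimus replicates 1 to 4 and at 73.7, 95.1, 119.8 and 68.1 FPKM in vehicle replicates 1 to 4. The groups overlapped, with the highest and the lowest library both in the vehicle group. The log2 difference of Slc2a1 was 0.08 (SE 0.20, 95% interval -0.37 to 0.53, limma adjusted p = 0.853).

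Slc2a3 (GLUT3; ENSMUSG00000003153; GRCm38 chromosome 6, 122727809 to 122801640, minus strand) is a high-affinity transporter known from neurons and leukocytes. It was at 4.95, 4.07, 3.45 and 4.64 FPKM with tacrolimus and at 14.8, 7.02, 6.31 and 6.96 FPKM with vehicle. Every tacrolimus library lay below every vehicle library, and vehicle replicate 1 stood far above the rest. The means were 4.28 ± 0.661 and 8.76 ± 4.01 FPKM (SD, n = 4 each), and the vehicle mean was 6.76 FPKM without replicate 1. The log2 difference was -0.82 (SE 0.26, limma adjusted p = 0.20, unadjusted p = 0.00963). Of the 30 genes, Slc2a3 alone had an unadjusted p under 0.05 in each of the 18 limma fits run. Its log2 differences ran from -0.94 to -0.56 and its adjusted p values from 0.108 to 0.439. These fits draw on the same 8 libraries and are not independent of each other. In single fits 735 to 2587 of all genes were lower by that rule, and how many were so in all 18 was not counted. The highest library for Slc2a3, vehicle replicate 1, also had the highest T cell sum (1377 FPKM) and the highest macrophage sum (1536 FPKM). In tacrolimus replicate 2, where the T cell sum was 45.6 FPKM, Slc2a3 was at 4.07 FPKM. The part of those cells in its level was not tested.

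Hexokinases trap glucose in the cell by phosphorylation. Hk2, the inducible isozyme of activated and tumor cells (ENSMUSG00000000628; GRCm38 chromosome 6, 82725025 to 82774454, minus strand), was at 122, 129, 132 and 130.0 FPKM with tacrolimus and at 61.2, 104, 146 and 75.2 FPKM with vehicle. The tacrolimus libraries lay within a narrow band, while 3 vehicle libraries lay below it and 1 above it. The means were 128 ± 4.16 and 96.5 ± 37.3 FPKM, and the log2 difference stood at 0.49 (SE 0.23, 95% interval -0.04 to 1.01, limma adjusted p = 0.307). After median-of-ratios scaling the difference of Hk2 was 0.71. Hk1, the housekeeping isozyme that binds mitochondria, was at 41.8 ± 8.2 and 48.7 ± 13.9 FPKM, and its log2 difference was -0.19 as deposited but 0.03 after median-of-ratios scaling.

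The enzymes between glucose 6-phosphate and the triose phosphates overlapped between the groups. Gpi1, which isomerizes glucose phosphate, was at 554 ± 37.3 and 541 ± 146 FPKM in the tacrolimus and vehicle groups. Phosphofructokinase, the committed step, is built of liver, muscle and platelet type subunits. Pfkl, the liver type, was at 232 ± 38.3 and 241 ± 64.9 FPKM, and Pfkp, the platelet type, at 148 ± 16 and 173 ± 31.8 FPKM. Pfkm, the muscle type, was at 9.46 ± 1.82 and 9.9 ± 3.06 FPKM, the lowest of the 3 in every library on this per-length scale. The aldolase Aldoa, which cleaves the hexose bisphosphate, was at 3231 ± 305 and 3279 ± 699 FPKM, and the brain type Aldoc at 69.7 ± 4.96 and 66.4 ± 14.4 FPKM. Tpi1, triosephosphate isomerase, was at 2496 ± 183 and 2299 ± 627 FPKM. The log2 differences of these 7 genes ran from -0.21 (Pfkp) to 0.16 (Tpi1). After median-of-ratios scaling all 7 were above 0, Pfkp by 0.02.

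The enzymes from triose phosphate to pyruvate were among the most abundant transcripts of every library. Gapdh, which oxidizes glyceraldehyde phosphate, was at 9585, 11926, 11686 and 10280.3 FPKM with tacrolimus and at 7792, 12234, 13215 and 7519.7 FPKM with vehicle. Vehicle replicates 1 and 4 lay below all tacrolimus libraries, and vehicle replicates 2 and 3 above all of them. Gapdh ranked between place 4 and place 11 among all genes of a library, and its log2 difference was 0.13 with a 95% interval of -0.37 to 0.64. Pgk1, the first ATP-yielding enzyme, was at 1425 ± 138 and 1321 ± 319 FPKM, and Pgam1, a mutase, at 1342 ± 137 and 1268 ± 314 FPKM. Enolase 1 (Eno1) was at 2083 ± 143 and 2103 ± 533 FPKM and pyruvate kinase (Pkm) at 2028 ± 230.0 and 2151 ± 519 FPKM. The log2 differences of these 5 genes ran from -0.06 (Pkm, 0.17 after median-of-ratios scaling) to 0.14 (Pgk1), and their smallest limma adjusted p was 0.712.

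The level of Gapdh is uncertain because it has many near-identical copies. Of 239 annotated pseudogenes that matched 11 of the 30 genes at 90% identity or more over at least 300 bases, 182 matched Gapdh. Their summed level lay between 2361 and 4116 FPKM per library, at most 31.6% of the level of Gapdh itself. The 4 pseudogenes of Pgk1 reached at most 3.74% of its level, and the 7 of Eno1 at most 2.84%. For the other members with a copy the highest figure was 0.229%. How reads were shared between such copies is not given in the sources used here.

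**Figure D2:**
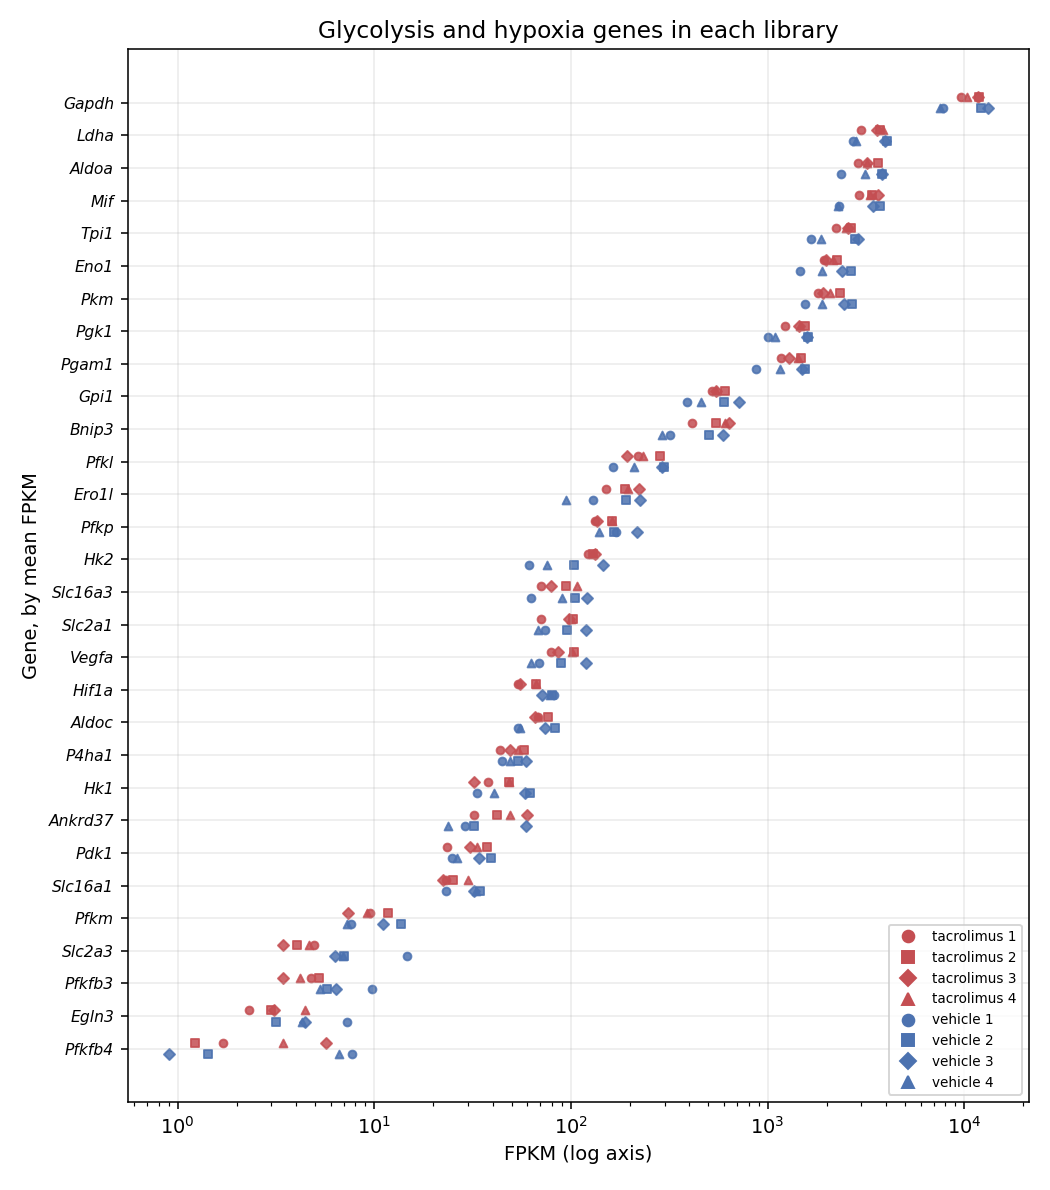
FPKM (log axis) of each of the 30 genes, ordered by mean level, in the 4 tacrolimus (red) and 4 vehicle (blue) libraries, with 1 symbol shape per replicate number. Gapdh is highest and Pfkfb4, between 0.90 and 7.68 FPKM, lowest; for Gapdh and Ldha the vehicle symbols lie on both sides of the tacrolimus symbols.

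Genes that handle pyruvate and lactate also overlapped between the groups. Ldha, which turns pyruvate into lactate, was at 2994, 3709.8, 3593 and 3872 FPKM with tacrolimus and at 2727, 4065, 3939 and 2826 FPKM with vehicle. Vehicle replicates 1 and 4 again lay below all tacrolimus libraries and replicates 2 and 3 above them, and the log2 difference was 0.08 (SE 0.18). Slc16a3 (MCT4), the lactate exporter of glycolytic cells, was at 87.9 ± 16.6 and 94.9 ± 24.9 FPKM. Slc16a1 (MCT1), which moves lactate in either direction, was at 25.1 ± 3.48 and 30.7 ± 5.09 FPKM, and its log2 difference was -0.27 (SE 0.17, limma adjusted p = 0.403). Pdk1, a kinase that keeps pyruvate out of the mitochondrial cycle, was at 31.1 ± 5.84 and 31.1 ± 6.8 FPKM.

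Pfkfb enzymes set the level of the fructose bisphosphate that activates phosphofructokinase. Pfkfb3 (ENSMUSG00000026773; GRCm38 chromosome 2, 11471433 to 11554077, minus strand), an isozyme known for its strong kinase activity, was at 4.79, 5.26, 3.43 and 4.19 FPKM with tacrolimus and at 9.74, 5.72, 6.37 and 5.28 FPKM with vehicle. The groups did not overlap, but the gap between the highest tacrolimus and the lowest vehicle library was very small. The log2 difference was -0.50 (SE 0.22, limma adjusted p = 0.273, unadjusted p = 0.0435) and -0.31 after median-of-ratios scaling. Its unadjusted p was under 0.05 in 10 of the 18 limma fits, but under neither median-of-ratios nor upper-quartile scaling (limma unadjusted p = 0.209 and 0.184). As deposited 15.8% of all genes were lower by that rule. As for Slc2a3, vehicle replicate 1 was the highest library, and the vehicle mean without it was 5.79 FPKM. Pfkfb4, a hypoxia-induced isozyme, was at 1.7, 1.22, 5.69 and 3.45 FPKM with tacrolimus and at 7.68, 1.42, 0.90 and 6.6 FPKM with vehicle. Its high and low libraries were spread over both groups, with a coefficient of variation over the 8 libraries of 75.6%, the largest of the 30 genes. The 95% interval of its difference, -1.39 to 1.01, holds both directions.

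Hif1a (ENSMUSG00000021109; GRCm38 chromosome 12, 73901375 to 73947530, plus strand) encodes the oxygen-regulated subunit of HIF1. It was at 53.9, 66.8, 55.3 and 66.1 FPKM with tacrolimus and at 82, 80.5, 71.7 and 77.9 FPKM with vehicle. All tacrolimus libraries lay below all vehicle libraries. The means were 60.5 ± 6.87 and 78 ± 4.54 FPKM (SD, n = 4 each), and the log2 difference was -0.37 (SE 0.13, limma adjusted p = 0.216, unadjusted p = 0.0163). After median-of-ratios scaling it was -0.14 (unadjusted p = 0.178, limma adjusted p = 0.574). After upper-quartile scaling it was also -0.14 (limma unadjusted p = 0.155). The other 16 of the 18 limma fits, none of which used these 2 scalings, had an unadjusted p under 0.05 for Hif1a. As deposited 15.8% of all genes were lower by that rule, beside 5.64% and 5.97% under the 2 scalings. Over the 18 fits the adjusted p of Hif1a ran from 0.172 to 0.574. Egln3, a prolyl hydroxylase that is itself induced by HIF, was at 2.32, 2.99, 3.1 and 4.46 FPKM with tacrolimus and at 7.31, 3.18, 4.47 and 4.31 FPKM with vehicle. The groups overlapped for Egln3, whose log2 difference was -0.44 (SE 0.25, limma adjusted p = 0.373).

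Several hypoxia-induced genes had higher means with tacrolimus, opposite to Hif1a. Bnip3, a mitophagy receptor (chromosome 7, 138890836 to 138909519, minus strand), was at 413, 549, 640.3 and 605 FPKM with tacrolimus and at 320.2, 505, 591 and 291 FPKM with vehicle. Ankrd37, an ankyrin repeat protein and HIF1 target (chromosome 8, 45996902 to 46005707, minus strand), was at 32.3, 42.1, 59.5 and 48.9 FPKM with tacrolimus and at 28.8, 32, 59.2 and 23.9 FPKM with vehicle. In both genes vehicle replicates 1 and 4 lay below every tacrolimus library, as did vehicle replicate 2 for Ankrd37, while vehicle replicate 3 was the highest vehicle library. Their log2 differences were 0.41 (SE 0.24) for Bnip3 and 0.39 (SE 0.28) for Ankrd37, with limma adjusted p values of 0.385 and 0.466. Ero1l, an oxidase of the endoplasmic reticulum, was at 189 ± 28.8 and 159 ± 58 FPKM. Vegfa, the angiogenic growth factor, was at 92.3 ± 11.7 and 84.9 ± 25.4 FPKM, and the cytokine Mif at 3319.5 ± 309 and 2938 ± 750.2 FPKM. P4ha1, a collagen prolyl hydroxylase, was at 50.9 ± 6.14 and 51.8 ± 6.39 FPKM and had the smallest coefficient of variation of the 30 genes, 11.3%. Of these 8 genes, Hif1a and Egln3 included, 5 had a higher and 3 a lower mean with tacrolimus, with a median log2 difference of 0.18 beside -0.19 for all genes.

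The promoters of some genes from the lower and some from the higher side of this comparison are shown to set their HIF cores side by side. They are the 250 bases before the RefSeq start (GRCm38.p6, 5′ to 3′ on the gene's strand) of Hif1a and Pfkfb3, which lay lower without overlap, and of Hk2, Bnip3 and Ankrd37, which had the highest log2 differences. The windows are chr12:73907617-73907866 (plus) for Hif1a, chr2:11502091-11502340 (minus) for Pfkfb3 at 1 of its 2 starts, chr6:82774455-82774704 (minus) for Hk2, chr7:138909507-138909756 (minus) for Bnip3 and chr8:45999851-46000100 (minus) for Ankrd37. Slc2a3, with the lowest log2 difference, had no window here, and the window of Egln3, whose log2 difference was below that of Hif1a, is not shown. Capitals mark every match to ACGTG or GCGTG on either strand.
Hif1a: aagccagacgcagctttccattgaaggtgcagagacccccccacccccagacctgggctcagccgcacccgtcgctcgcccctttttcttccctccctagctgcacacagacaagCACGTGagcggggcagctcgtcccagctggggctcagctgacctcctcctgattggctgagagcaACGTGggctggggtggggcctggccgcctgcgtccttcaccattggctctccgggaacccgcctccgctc
Pfkfb3: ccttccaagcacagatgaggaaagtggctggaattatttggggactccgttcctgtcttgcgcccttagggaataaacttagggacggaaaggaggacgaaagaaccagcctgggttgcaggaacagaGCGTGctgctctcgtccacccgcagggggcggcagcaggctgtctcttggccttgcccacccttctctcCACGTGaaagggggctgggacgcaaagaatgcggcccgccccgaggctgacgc
Hk2: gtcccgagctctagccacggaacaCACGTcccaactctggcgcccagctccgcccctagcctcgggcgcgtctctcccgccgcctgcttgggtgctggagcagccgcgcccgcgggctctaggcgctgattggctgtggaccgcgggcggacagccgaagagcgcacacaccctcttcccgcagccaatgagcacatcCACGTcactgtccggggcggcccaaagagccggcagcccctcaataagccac
Bnip3: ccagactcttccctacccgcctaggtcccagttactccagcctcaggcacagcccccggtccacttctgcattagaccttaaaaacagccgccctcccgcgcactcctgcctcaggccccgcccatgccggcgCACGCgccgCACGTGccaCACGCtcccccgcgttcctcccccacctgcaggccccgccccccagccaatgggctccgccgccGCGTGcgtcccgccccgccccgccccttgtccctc
Ankrd37: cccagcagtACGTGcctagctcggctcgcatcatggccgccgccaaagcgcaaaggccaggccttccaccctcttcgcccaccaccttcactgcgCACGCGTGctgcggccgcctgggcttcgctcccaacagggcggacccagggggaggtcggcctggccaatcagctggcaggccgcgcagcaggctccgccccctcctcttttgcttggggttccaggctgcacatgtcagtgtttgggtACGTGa

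All 5 windows held such a core. There were 3 matches for Hif1a, 3 for Pfkfb3, 2 for Hk2, 5 for Bnip3 and 4 for Ankrd37, where a palindromic CACGTG counts once on each strand. The window at the other start of Pfkfb3, chr2:11553930-11554179 (minus), held 1 match, so the count for that gene depends on the start shown. RefSeq gave 43 such windows for 29 of the 30 genes, Ero1l under its newer symbol Ero1a. The core was in 34 of the 43 windows, or 79.1%, beside 38.6% of 32851 mouse windows of the same length. ACGTG alone was in 48.8% of the 43 windows and in 16.6% of all windows. The 43 windows were also richer in G and C, with a median of 61.6% beside 52.4%, and the part of base composition in these shares was not tested. Gpi1, Mif and Tpi1 had no match in their windows, which says only that these letters are not there.

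The pattern that most of the 30 genes shared lay within the vehicle group. For 29 of the 30, all but Hif1a, the SD of log2(FPKM + 1) was larger among the vehicle mice than among the tacrolimus mice, as it was for 63.1% of all genes tested. The median SD of the 30 genes was 0.387 in the vehicle group and 0.178 in the tacrolimus group, beside 0.303 and 0.254 for all genes. In vehicle replicate 1, 18 of the 30 genes (60%) lay below every tacrolimus library, beside 18.3% of all genes tested. In vehicle replicate 4, 16 of them (53.3%) did, beside 12.7%. In vehicle replicate 3, 23 of the 30 (76.7%) lay above every tacrolimus library, beside 32.5% of all genes. In vehicle replicate 2, 19 of them (63.3%) did, beside 58.1%, so that share was near the share of all genes. Replicates 1 and 4 were the 2 lowest vehicle libraries for 23 of the 30 genes, beside 20.9% of all genes tested. This pair was singled out after its values were seen, and the counts are a description.

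**Figure D3:**
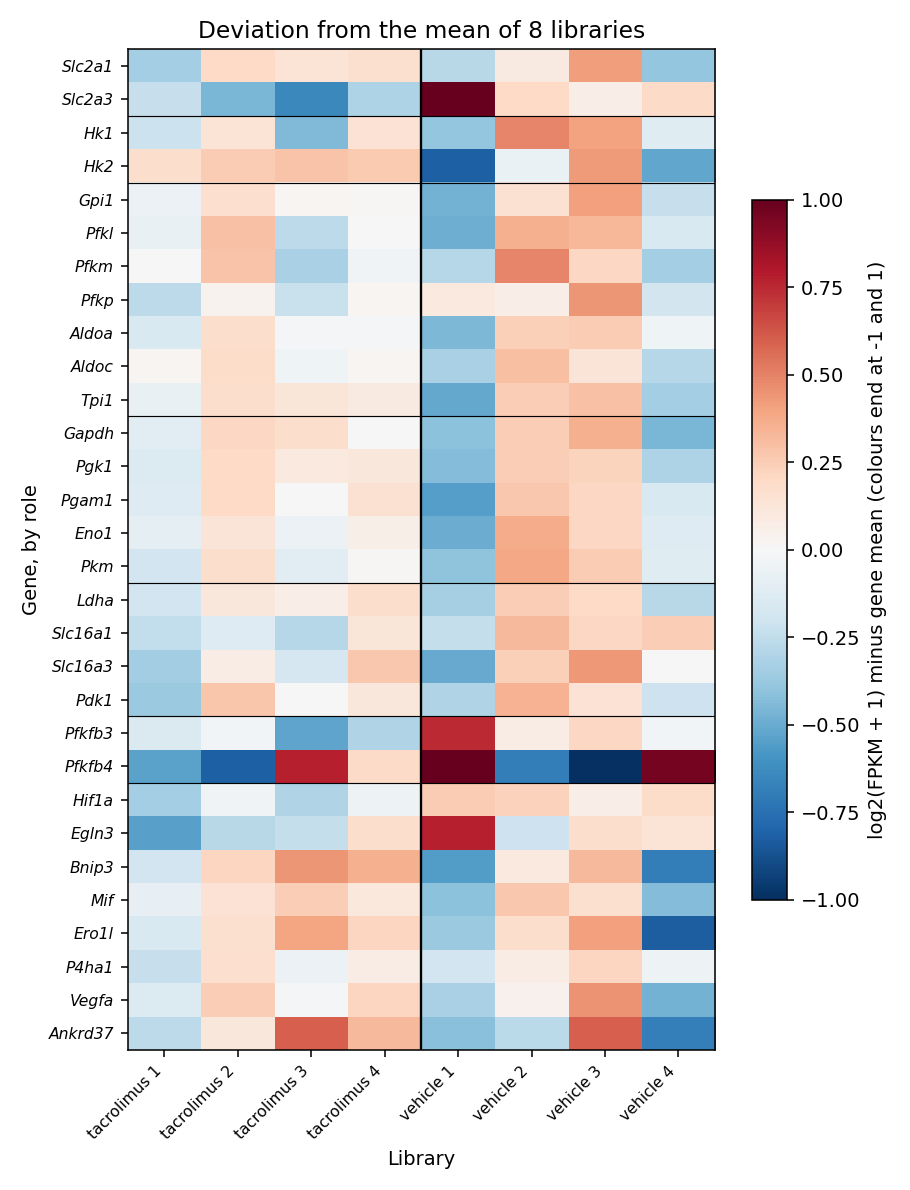
Deviation of log2(FPKM + 1) from the gene's mean over 8 libraries (color), for the 30 genes in order of role (rows) in each library (columns, tacrolimus left of the thick line). Vehicle replicates 1 and 4 are mostly blue (low) and replicates 2 and 3 mostly red (high), while Slc2a3, Pfkfb3, Pfkfb4 and Egln3 are red in vehicle replicate 1.

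The exceptions in vehicle replicate 1 were Slc2a3, Pfkp, Pfkfb3, Pfkfb4, Hif1a and Egln3, which lay above every tacrolimus library. In vehicle replicate 4 they were Slc2a3, Slc16a1, Pfkfb3, Pfkfb4 and Hif1a. Of all genes tested, 33.6% lay above every tacrolimus library in vehicle replicate 1 and 45.6% in vehicle replicate 4. Lying there was thus no trait particular to these members. Pfkfb4 was high in vehicle replicates 1 and 4 and low in replicates 2 and 3, opposite to Gapdh and Ldha. In vehicle replicate 3, Pfkfb4 was the only one of the 30 genes that lay below every tacrolimus library, beside 9.35% of all genes tested.

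The summed FPKM of the 30 genes followed the order of the abundant enzymes. The sums were 28858, 35564, 33783 and 32845 in tacrolimus replicates 1 to 4, and 3.18% to 3.93% of all FPKM of a library. In vehicle replicates 1 to 4 they were 23524, 37701, 38186 and 25478, and 2.59% to 4.21% of all FPKM. Vehicle replicates 1 and 4 also had the highest macrophage sums, 1536 and 995 FPKM, whereas their melanoma sums were the lowest and the highest of the 8 libraries, 19078 and 34361 FPKM. The neutrophil sums were also the 2 highest of the 8 libraries there, 351 and 77.6 FPKM. The T cell sum was 1377 FPKM in vehicle replicate 1 and 438 FPKM in vehicle replicate 4. The 5 erythroid markers summed to 3743 and 5798 FPKM in these libraries and to 116 and 1299 FPKM in vehicle replicates 2 and 3. In tacrolimus replicate 2, which had the highest tacrolimus sum of the 30 genes, they came to 7897 FPKM. The part of any of these cell types in the low sums was not tested.

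**Figure D4:**
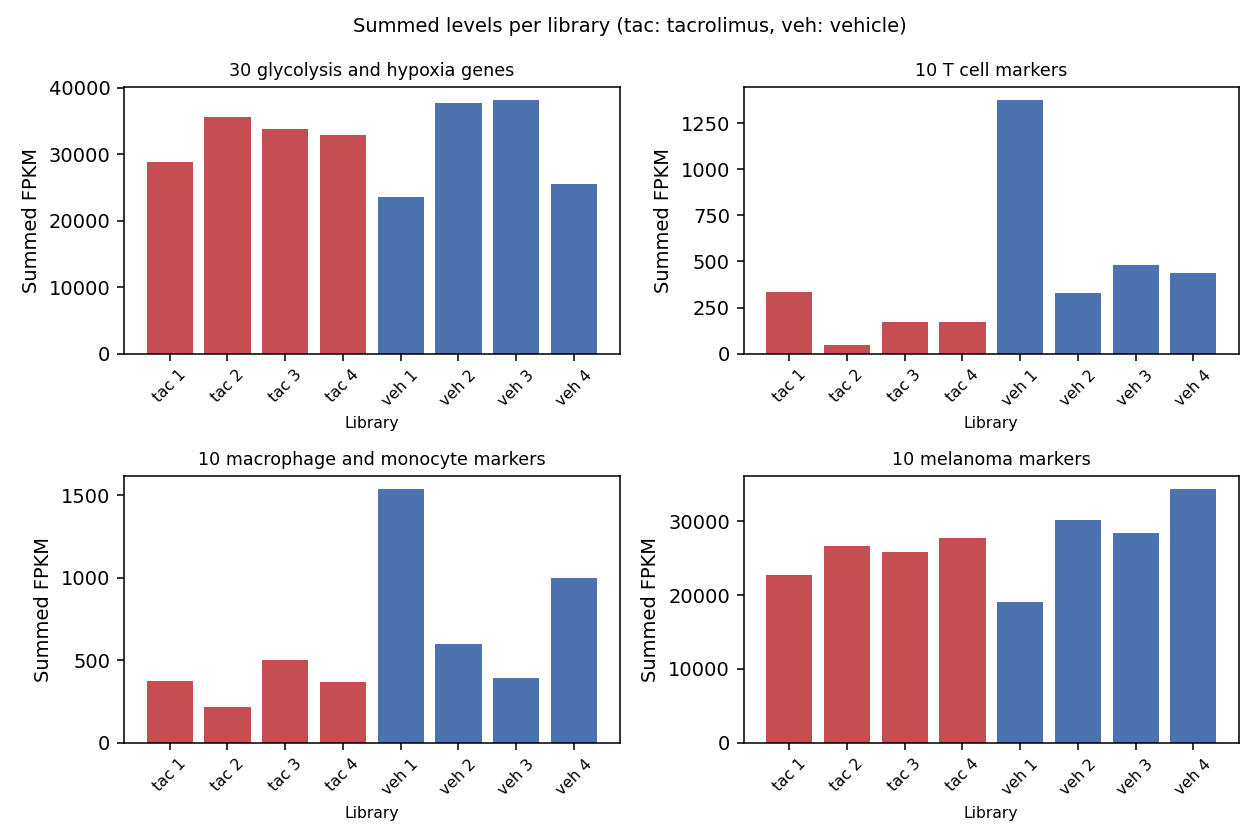
Summed FPKM per library (bars from 0) of the 30 glycolysis and hypoxia genes and of 10 T cell, 10 macrophage and monocyte and 10 melanoma markers, tacrolimus in red and vehicle in blue. The vehicle bars of the 30 genes, from 23524 to 38186, enclose the tacrolimus bars, and the low vehicle replicates 1 and 4 have the 2 highest macrophage bars and opposite melanoma bars.

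The share of a paralog within its family does not move with the scaling of a library. Of 8 families compared, the hexokinases alone had groups that did not overlap. Hk2 made up 76%, 71.9%, 79.6% and 72.1% of the summed FPKM of Hk1, Hk2 and Hk3 with tacrolimus and 58.9%, 61%, 70.8% and 61.6% with vehicle. Every tacrolimus library lay above every vehicle library, with vehicle replicate 3 close below the tacrolimus libraries. The means were 74.9% ± 3.65 and 63.1% ± 5.25 (SD, n = 4 each), with an exact two-sided permutation p of 0.0286, the smallest that 4 against 4 allows, and an adjusted p of 0.229 over the 8 families. A lone family at this smallest p cannot reach an adjusted p under 0.05 over 8 families, so the adjusted test decides nothing here. Hk3, the isozyme of myeloid cells, was at 1.6 ± 0.517 and 5.39 ± 3.22 FPKM. Without Hk3, an alternative chosen after seeing the data, the share of Hk2 was 72.7% to 80.4% with tacrolimus and 62.5% to 71.4% with vehicle.

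The other 7 families overlapped. Slc2a1 made up 95.5% ± 1.4 and 90.5% ± 5.12 of the summed FPKM of Slc2a1 and Slc2a3, with vehicle replicate 1 at 83.3% (exact permutation p = 0.0571, adjusted p = 0.229). Pfkp made up 38.1% ± 2.51 and 41.3% ± 6.24 of the phosphofructokinase subunits. Ldha made up 91.7% ± 1.66 and 92.4% ± 1.2 of Ldha and Ldhb, the subunits of lactate dehydrogenase. For the lactate transporters, Slc16a3 made up 77.6% ± 1.61 and 75.1% ± 2.84 of Slc16a1 and Slc16a3. Aldoc made up 2.12% ± 0.126 and 2.0% ± 0.23 of Aldoa and Aldoc, and Pdk1 36.6% ± 3.66 and 37.5% ± 1.13 of the 4 pyruvate dehydrogenase kinases. Pfkfb3 made up 48.6% ± 16 and 55.2% ± 17.2 of its 4 isozymes, with single libraries from 29.1% to 74.2%.

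**Figure D5:**
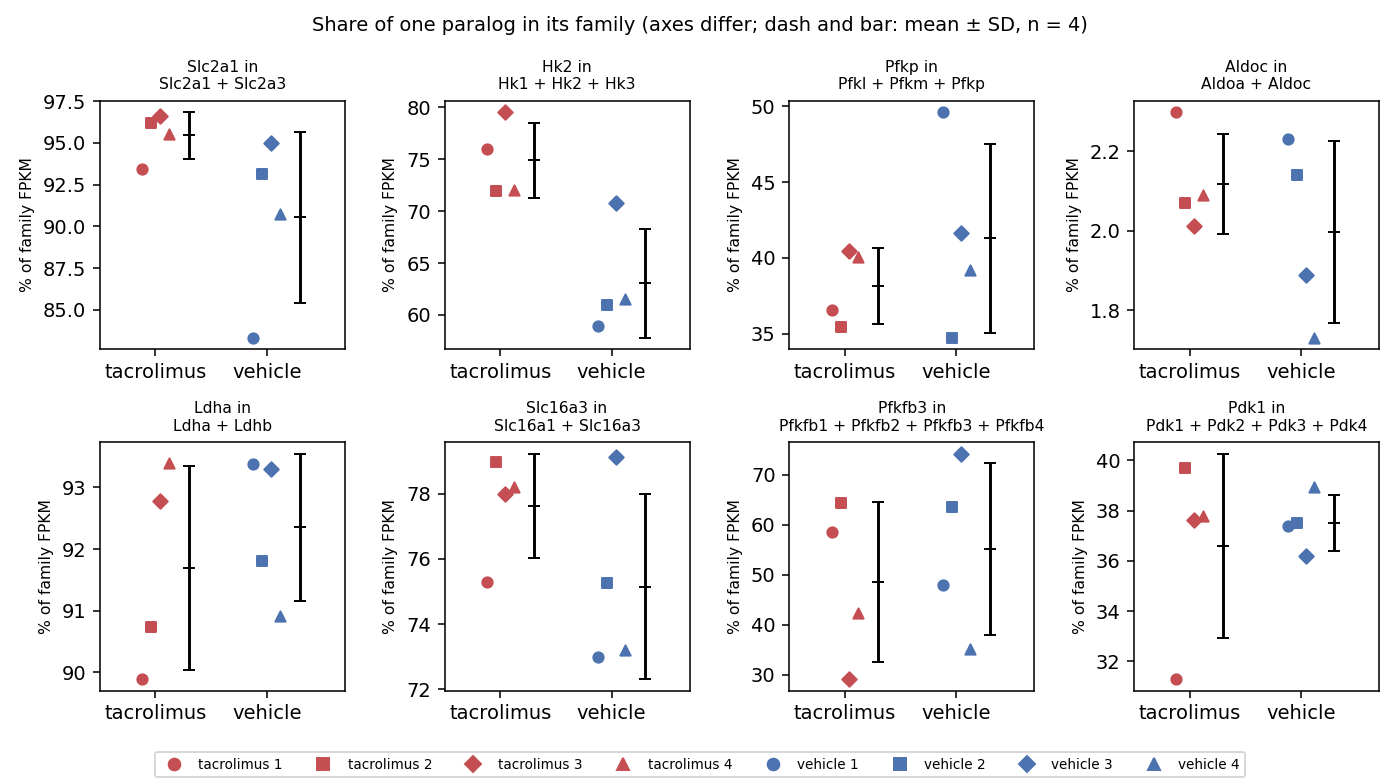
Share of 1 paralog in the summed FPKM of its family, in percent, for 8 families (panels with their own axes, which do not start at 0), as 1 point per library with the mean and SD of 4 mice. In the Hk2 panel the tacrolimus points, 71.9% to 79.6%, all lie above the vehicle points, 58.9% to 70.8%; in the other panels the groups overlap.

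Other genes of glucose metabolism were read from lists arranged by role, and none passed an adjusted p of 0.05 in limma. Among other glycolytic isozymes and transporters, 18 of 24 could be tested, and 3 were lower and 1 higher at an unadjusted p under 0.05, beside 15.8% and 1.60% of all genes. The median log2 difference was -0.29, beside -0.19 for all genes. The lower ones were Hk3 (log2 difference -1.16), the mitochondrial phosphatase Pgam5 at 23.6 ± 4.77 and 32.7 ± 3.87 FPKM, and Ldhd, which oxidizes D-lactate, at 1.03 ± 0.182 and 2.04 ± 0.688 FPKM. Pgam2, the muscle mutase, was the higher one, at 182 ± 49.2 and 123 ± 33.7 FPKM, and its log2 difference was 0.56 (SE 0.24, limma adjusted p = 0.267). After median-of-ratios scaling the list median was -0.10 beside 0.01 for all genes. Hk3 stayed lower by that rule (limma unadjusted p = 0.0291), as 5.64% of all genes were, and Pgam5 and Ldhd did not (0.0578 and 0.0564). Pgam2 stayed higher (0.0243), as 5.69% were. Bpgm and Ldhb, picked after their values were seen, were then also higher (0.0447 and 0.0362).

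Among other hypoxia-induced genes, 26 of 30 could be tested, with 17 higher and 9 lower in mean and a median log2 difference of 0.17, beside -0.19 for all genes. At an unadjusted p under 0.05, 2 were higher and 2 lower, beside 1.60% and 15.8% of all genes. Fam162a, a mitochondrial protein induced by HIF1, was at 931 ± 149.9 and 649 ± 186 FPKM, and its log2 difference was 0.55 (SE 0.22, limma adjusted p = 0.25). The nuclear receptor gene Rora was at 81.2 ± 15 and 59 ± 13.6 FPKM. Lower were Bhlhe40, a transcription factor also induced in activated T cells, at 136 ± 9.16 and 176 ± 26.3 FPKM, and Lox, a collagen cross-linking oxidase, at 0.77 ± 0.411 and 1.62 ± 0.27 FPKM. After median-of-ratios scaling 22 of the 26 were higher and 4 lower, with a median of 0.38 beside 0.01 for all genes. Fam162a and Rora stayed higher by that rule (limma unadjusted p = 0.00693 and 0.00816), which 5.69% of all genes were. Egln1, Gbe1, Bnip3l, Plod2 and Higd1a, picked after their values were seen, were then also higher by it. Bhlhe40 and Lox were no longer lower by it (limma unadjusted p = 0.352 and 0.0783).

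In the oxygen sensing list, 2 of 12 genes tested were lower at an unadjusted p under 0.05 and none was higher, beside 15.8% and 1.60% of all genes. The median log2 difference of the list was -0.01, beside -0.19 for all genes. Cited2, which competes with HIF1 alpha for its coactivator, was at 33.5 ± 2.34 and 45 ± 4.74 FPKM. Egln2, a prolyl hydroxylase, was at 12.8 ± 1.51 and 17.9 ± 1.91 FPKM. Neither gene's groups overlapped, as was so for 11.0% of all genes tested. After median-of-ratios scaling 8 of the 12 were higher, with a median of 0.21 beside 0.01 for all genes. Egln2 was then still lower at an unadjusted p under 0.05 (limma, 0.0442), as 5.64% of all genes were, and Cited2 was not (0.107). Rbx1, picked after its values were seen, was then higher by that rule (limma unadjusted p = 0.0397).

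Past pyruvate, the shares of genes with lower means lay near the 75.7% of all genes tested, whose median was -0.19. Of 11 genes of mitochondrial pyruvate entry, 9 (81.8%) were lower in mean and the median was -0.16. The pyruvate dehydrogenase phosphatase Pdp1, at 1.58 ± 0.796 and 3.51 ± 0.457 FPKM, was the only one of them at an unadjusted p under 0.05. In the tricarboxylic acid cycle 12 of 16 (75%) were lower in mean, with a median of -0.09, and 2 of 16 were lower by that rule, beside 15.8% of all genes. These were Ogdh, a subunit of the oxoglutarate dehydrogenase, at 68.2 ± 12.2 and 95.8 ± 17.6 FPKM, and Sdha, a subunit of succinate dehydrogenase, at 111 ± 13.8 and 141 ± 14.9 FPKM. In the pentose phosphate pathway 6 of 7 (85.7%) were lower in mean, with a median of -0.21, and 0 passed that rule. Pgd, its decarboxylating dehydrogenase, was at 47.9 ± 6.87 and 63.5 ± 13.8 FPKM. After median-of-ratios scaling the medians of these 3 lists were 0.03, 0.13 and 0.02. Pdp1 was then still lower at an unadjusted p under 0.05 (limma, 0.0150), as 5.64% of all genes were. Ogdh and Sdha were not (limma unadjusted p = 0.0627 and 0.183). Fh1 of the tricarboxylic acid cycle, picked after its values were seen, was then higher by that rule (limma unadjusted p = 0.0342), as 5.69% of all genes were.

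Upstream regulators of T cell glucose metabolism had lower means in 10 of 10 genes tested, with a median log2 difference of -0.32 as deposited and -0.12 after median-of-ratios scaling, under which 1 of the 10 was higher. Of all genes tested 75.7% had lower means, with a median of -0.19 as deposited and 0.01 after that scaling. At an unadjusted p under 0.05, 4 of the 10 were lower, beside 15.8% of all genes. Txnip, which restrains glucose uptake, was at 40.4, 40.3, 32.5 and 43.4 FPKM with tacrolimus and at 72.7, 55.8, 54.3 and 59.2 FPKM with vehicle. Its groups did not overlap, and its log2 difference was -0.61 (SE 0.15, limma adjusted p = 0.179). Myc, a driver of glycolytic gene expression in activated T cells and tumors, was at 19.9, 20.9, 15.4 and 21 FPKM with tacrolimus and at 23.4, 30.4, 28.7 and 29 FPKM with vehicle. The groups did not overlap for Myc either (log2 difference -0.51, SE 0.15, limma adjusted p = 0.195). Of all genes tested, 10.2% were lower with no overlap. Slc3a2 and Slc7a5, the chains of an amino acid transporter, were at 125 ± 4.9 and 158 ± 20 FPKM and at 23.6 ± 5.98 and 34.5 ± 9.0 FPKM. After median-of-ratios scaling Txnip and Myc were still lower at an unadjusted p under 0.05 (limma, 0.0248 and 0.0271), as 5.64% of all genes were. Slc3a2 and Slc7a5 were not (limma unadjusted p = 0.509 and 0.113). All 10 T cell markers also had lower means, with a median log2 difference of -1.86, and their part in this list was not tested.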

How the data were processed

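The deposited values hold 1 number per Ensembl gene and library, and they were read as FPKM, a unit inferred from the values (2 decimals, sums that differ between libraries, low values in steps that scale with gene length) because no header or label used here names it. Per the submitters' processing notes, HISAT2 2.1.0, RSEM 1.3.1, DESeq2 1.24.0 and the genome build GRCm38.p6 were involved, with no role given. The deposited files used here hold no counts, so depth was estimated from the steps of low values, which recovered whole fragments for too few values to run a count test.

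Values were compared as log2(FPKM + 1) with limma 3.58.1 in R 4.3.3 (linear model of 4 tacrolimus against 4 vehicle libraries, moderated variance with an intensity trend), over 13032 genes with at least 1 FPKM in at least 4 libraries. Benjamini-Hochberg adjustment ran over all of them. Paralog shares were compared by exact two-sided permutation. The script was tested on simulated data. The 30 genes, the other gene lists and the markers were chosen with earlier results of these data known. All 30 genes are described, and from each pathway list up to 4 genes with the smallest p were named. The 17 alternatives of the closing section changed the pseudocount, filter, scaling, variance estimate, library weights and replicate block, or left out a library. Promoter sequences are from RefSeq, GRCm38.p6. For Slc2a3 no promoter window was used here.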

Additional observations from a re-analysis of the deposited data

Results flagged for a closer look

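In 2 of 76 groups of 4 libraries examined, 1 library lay far from the other 3, measured as its gap to the nearest library over the range of the group. Chance flags about 1 in 20 such groups. The first was tacrolimus replicate 1 for Slc2a1, 70.6 FPKM, against 98.2 to 103 FPKM in the rest of its group. The other was vehicle replicate 1 for Slc2a3, 14.75 FPKM, against 6.31 to 7.02 FPKM in the rest of its group.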

How the results depend on the processing

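No member passed an adjusted p of 0.05 in any of the 17 alternatives, where the smallest was 0.108 in limma. The number of all genes that passed was 0 as reported, 121 with the replicate block, and 0 to 1 when single libraries were left out, with the 1 gene without vehicle replicate 1. Nothing in the labels pairs same-numbered mice. The deviations of same-numbered libraries correlated at 0.21, 0.28, -0.02 and -0.02, and 2 of 4 tacrolimus libraries correlated best with their own number.

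At an unadjusted p under 0.05, the 3 members became 2 to 5 when single libraries were left out, fits in which 1313 to 2500 of all 13032 genes were lower and 144 to 289 higher by that rule. The 5, without vehicle replicate 3, were Slc2a3, Hk2, Hif1a, Bnip3 and Ankrd37. Lower members numbered 1 under median-of-ratios and 1 under upper-quartile scaling (beside 5.97% of all genes under the second). Higher members numbered 3 and 2 under these scalings (5.55% of all genes under the second), 1 under the replicate block (Hk2, beside 276 of all 13032 genes), and 0 to 3 when single libraries were left out.

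With library weights 13 of the 30 genes were higher and 17 lower, with a median of -0.016 beside -0.17 for all genes. With single libraries left out 10 to 22 of the 30 were higher. The direction of the log2 difference turned under both scalings in these genes, with the median-of-ratios value first: Hk1 0.032 and 0.031, Pfkl 0.21 and 0.20, Pfkm 0.17 and 0.17, Pfkp 0.018 and 0.017, Pkm 0.17 and 0.17, Slc16a3 0.14 and 0.14, P4ha1 0.20 and 0.20, Taldo1 0.0040 and 0.0026, Pdha1 0.013 and 0.011 and Tkt 0.016 and 0.014. The median of all genes moved from -0.19 to 0.01 and 0.0046 under them. With library weights it turned in Slc2a1 (-0.014), Gpi1 (-0.042), Aldoa (-0.068) and in the log2 difference of Eno1 (-0.036). Leaving out single libraries turned it in Slc2a1 (-0.038 to 0.23), Gpi1 (-0.072 to 0.22), Pfkl (-0.19 to 0.092), Pfkm (-0.15 to 0.12), Aldoa (-0.15 to 0.086), Aldoc (-0.0019 to 0.20), Pgam1 (-0.053 to 0.22), Eno1 (-0.14 to 0.15), Pkm (-0.20 to 0.060), Ldha (-0.015 to 0.18), Slc16a3 (-0.27 to 0.043), Pdk1 (-0.092 to 0.13), Pfkfb4 (-0.57 to 0.16) and P4ha1 (-0.092 to 0.049), and in the share of Pdk1 (-1.93 to 0.872 points). The cause was not tested. With 4 mice a group, without counts in the files used and with melanoma transcript in every library, most of the 30 genes have intervals that hold both directions.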
